A study of Mus musculus with 10 samples.

Results

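The genes described here are 33 genes of the unfolded protein response and the integrated stress response, out of 47729 genes in a table of liver RNA levels. They were taken by gene symbol and fall into 4 arms: 11 stress transcription factors and targets of ATF4, 4 stress sensors and transducers including Xbp1, 13 chaperones and folding enzymes of the endoplasmic reticulum (ER), and 5 genes of ER-associated degradation (ERAD). All 33 symbols were found once in the table. The livers came from female mice lacking Etnppl, the enzyme that breaks down phosphoethanolamine, in the whole body (KO, 5 samples), and from wild-type females (WT, 5 samples). The diet was the same in all 10 samples: 8 weeks of chow followed by 10 weeks of high-fat feeding, in which fat supplied 45% of the energy. The deletion was not limited to the liver, and neither its extent in the gene nor the strain is stated in the sources used here. Samples carry numbers within a genotype, but no label says that each was a separate animal, and p-values here reflect only the spread from sample to sample. In bulk liver, fewer cells of a type and less RNA per cell cannot be told apart.

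The unfolded protein response adjusts the folding capacity of the ER to its load of secretory and membrane proteins, which is large in hepatocytes. IRE1 (gene Ern1) splices the Xbp1 transcript into one that encodes an active transcription factor, ATF6 is cut in the Golgi to release another, and PERK (gene Eif2ak3) phosphorylates the initiation factor eIF2. Phosphorylation of eIF2, by PERK or by related kinases that sense other stresses, lowers general translation while raising that of Atf4, and ATF4 switches on genes of amino acid supply and stress; that branch is called the integrated stress response (ISR). Much of this control acts on translation, cleavage and splicing, none of which a gene-level RNA value shows.

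The short sequence elements through which these pathways are known to act were searched in the RefSeq promoter windows (build GRCm38.p6, the assembly behind mm10). Each window spanned 250 bases before and 50 after the start of the gene in RefSeq. A window was found for 30 of the 33 genes; Atf6, Manf and Hyou1 were not matched. The ER stress response element, ERSE (CCAAT and CCACG parted by any 9 bases, on either strand), known as a site of ATF6 with NF-Y, was in 9 of the 30 windows, against 37 of 27025 genes with a window (0.137%). It was in 7 of 11 chaperone genes, 2 of 5 ERAD genes and 0 of 11 ISR genes. Its compact form ERSE-II (ATTGG and CCACG parted by any 1 base, on either strand) was in Herpud1 alone among these genes, and in 0.0444% of all windows. These sites are shown because they set the chaperone and ERAD arms apart from the ISR arm in sequence. The genes were chosen as known members of pathways that act through these elements. The counts are therefore a description and no independent support. Each is read 5′ to 3′ on the stated strand with 5 flanking bases on each side, and capitals mark the element.
Hspa5 (chr2:34772020-34772048, plus strand): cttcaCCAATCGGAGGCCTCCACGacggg
Calr (chr8:84847070-84847098, plus strand): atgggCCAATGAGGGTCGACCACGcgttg
Derl3 (chr10:75893237-75893265, minus strand): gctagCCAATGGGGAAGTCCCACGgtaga
Hsp90b1 (chr10:86705633-86705661, minus strand): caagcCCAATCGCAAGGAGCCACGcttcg
Hsp90b1 (chr10:86705528-86705556, plus strand): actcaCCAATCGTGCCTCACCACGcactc
Canx (chr11:50325795-50325823, minus strand): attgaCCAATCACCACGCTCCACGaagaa
Pdia6 (chr12:17266486-17266514, plus strand): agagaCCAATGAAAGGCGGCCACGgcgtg
Dnajc3 (chr14:118937822-118937850, plus strand): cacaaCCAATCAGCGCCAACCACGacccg
Creld2 (chr15:88819515-88819543, minus strand): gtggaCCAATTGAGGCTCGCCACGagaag
Syvn1 (chr19:6046527-6046555, plus strand): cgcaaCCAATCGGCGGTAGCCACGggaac
Herpud1 (chr8:94386372-94386392, plus strand): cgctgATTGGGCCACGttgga
Hsp90b1 held 2 sites on opposite strands, and the ERSE-II line is that of Herpud1.

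The C/EBP-ATF response element, CARE (TGATGNAA, either strand), known as a site of ATF4, was in 5 of 11 ISR genes and in Herpud1, against 1219 of 27025 genes (4.51%). The XBP1 element UPRE (TGACGTGG, either strand) was in 0 of 30 windows and in 0.714% of all windows. No occurrences of different motifs overlapped in these windows. A match describes letters and not a bound site, and a window without one says only that these letters are absent from it. The CARE sites follow, written in the same way.
Atf3 (chr1:191183431-191183448, plus strand): cttggTGATGCAAgtgcg
Chac1 (chr2:119351044-119351061, minus strand): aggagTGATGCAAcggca
Trib3 (chr2:152344034-152344051, plus strand): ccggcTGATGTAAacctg
Asns (chr6:7693220-7693237, minus strand): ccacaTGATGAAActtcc
Nupr1 (chr7:126625568-126625585, plus strand): ctgtcTGATGCAAtctgg
Herpud1 (chr8:94386312-94386329, minus strand): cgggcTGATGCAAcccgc
The 250 bases before the RefSeq start are printed below for 3 genes. They are the main ER chaperone gene, the one gene here with both kinds of element, and the ISR gene of lowest p. Gene bounds given later are from the GENCODE annotation, whose starts can differ. The Atf3 window lies inside those bounds, as do the sites of Asns and Nupr1, and the Hspa5 window lies partly inside. Capitals mark ERSE in Hspa5, ERSE-II and the reverse complement of CARE in Herpud1, and the reverse complement of CARE in Atf3.
Hspa5 (chr2:34771840-34772089, plus strand): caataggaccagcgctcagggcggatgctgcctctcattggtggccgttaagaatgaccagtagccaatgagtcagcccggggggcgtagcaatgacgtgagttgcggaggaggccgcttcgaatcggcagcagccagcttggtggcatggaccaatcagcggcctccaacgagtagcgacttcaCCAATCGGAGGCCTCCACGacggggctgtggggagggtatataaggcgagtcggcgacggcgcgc
Herpud1 (chr8:94386179-94386428, plus strand): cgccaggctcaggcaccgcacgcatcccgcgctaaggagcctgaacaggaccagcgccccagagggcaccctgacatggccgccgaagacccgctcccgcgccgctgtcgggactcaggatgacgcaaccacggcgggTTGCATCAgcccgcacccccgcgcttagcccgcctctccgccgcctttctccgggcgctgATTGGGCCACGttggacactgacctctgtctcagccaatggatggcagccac
Atf3 (chr1:191183334-191183583, minus strand): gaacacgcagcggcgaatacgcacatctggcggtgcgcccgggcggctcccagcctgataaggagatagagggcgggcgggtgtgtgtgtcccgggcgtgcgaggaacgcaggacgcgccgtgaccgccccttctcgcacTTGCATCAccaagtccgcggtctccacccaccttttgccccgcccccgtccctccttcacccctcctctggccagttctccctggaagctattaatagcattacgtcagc

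Levels are given as FPKM, fragments scaled to transcript length and library size. Depth, judged from the steps between low values, was 21100000 to 28300000 fragments per library. Etnppl averaged 8.69 ± 1.16 FPKM in KO livers and 36.9 ± 11.5 FPKM in WT livers (SD, n = 5 each), with no overlap, so each library matched its label. Of 12395 genes that averaged 0.5 FPKM or more, 8 passed the limma test at an adjusted p of 0.05 (0.0645%). Defining hepatocyte genes were present in every library, and their summed level ran from 73262 to 84906 FPKM in KO livers and from 66214 to 77930.2 FPKM in WT livers. Alb alone averaged 42559.6 FPKM in KO livers and 38646 FPKM in WT livers. Of these 10 genes, 3 had an unadjusted limma p under 0.05, all higher in KO livers, beside 2.69% of all genes tested. Of them 2, Tat and Cps1, had separate ranges, beside 0.581% of all genes tested. After adjustment 0 of the 10 passed. Macrophage markers summed to 197 to 300.1 FPKM in KO livers and 229.5 to 321 FPKM in WT livers, endothelial markers to 172 to 206 FPKM in KO and 185 to 208 FPKM in WT, and stellate markers to 142 to 161 FPKM in KO and 148 to 195 FPKM in WT. One library stood apart: in KO3 the 17 pancreas acinar markers summed to 222 FPKM with none at 0, against 2.35 to 3.57 FPKM in the other KO livers and 2.64 to 4.78 FPKM in WT livers, where 6 to 15 of the 17 were at 0 in each library. Acinar cells are rich in ER chaperones, so values without KO3 are given beside the chaperone results. WT2 also differed from the rest. Log2 levels of each library were correlated across genes with the median of the other libraries of the same genotype. The lowest r was that of WT2, at 0.9879, against 0.9895 for KO3 and 0.9905 to 0.9923 for the others. WT2 also had the highest stellate sum, and its macrophage sum was 321 FPKM, as in WT1.

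Loss of Etnppl was not accompanied by a difference in any of the 33 genes that passed the test. Phgdh lay under the level filter, and 0 of the other 32 passed an adjusted p of 0.05 by limma. At an unadjusted p under 0.05 there were 3, all with a lower mean in KO livers: Atf3 in the ISR arm, Xbp1 among the sensors and Dnajc3 among the chaperones. They make up 9.38% of the 32, and 9.07% of all 12395 genes tested were lower at that p, while 2.69% were higher. Without KO3 there were 4 genes at that p, and without WT2 there were 2. The shares of all genes in those 2 settings are not given here, so these counts are a description only. The lower share depends on the scaling, since 77.1% of all genes at that p were lower with the deposited values and 49.1% after median-of-ratios scaling. Of the 32 genes, 23 had a lower mean in KO livers, beside 65.1% of all genes tested. Over all 33 the count was 24, and after median-of-ratios scaling it was 21, when 51.1% of all genes tested were lower. After quantile normalization it was again 24, when 51.7% of all genes tested were lower. The median log2 difference was -0.10 over the 33 genes and -0.05 over all genes tested.

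The spread between livers of one genotype was wider in these genes than in most. The median SD of log2 level within a genotype was 0.259 over the 32 of these genes that were tested and 0.169 over all genes tested. By arm it was 0.344 for the 10 tested ISR genes, 0.171 for the sensors, 0.266 for the chaperones and 0.362 for ERAD. Limma's 95% intervals of the KO to WT ratio lay within 1.25-fold in either direction for 9 of 32 genes, within 1.5-fold for 21 and within 2-fold for 28. The 4 with wider intervals were Asns, Nupr1, Herpud1 and Derl3. For the genes whose interval holds 0, a difference of the size the interval spans was not resolved with 5 libraries a group.

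**Figure D1:**
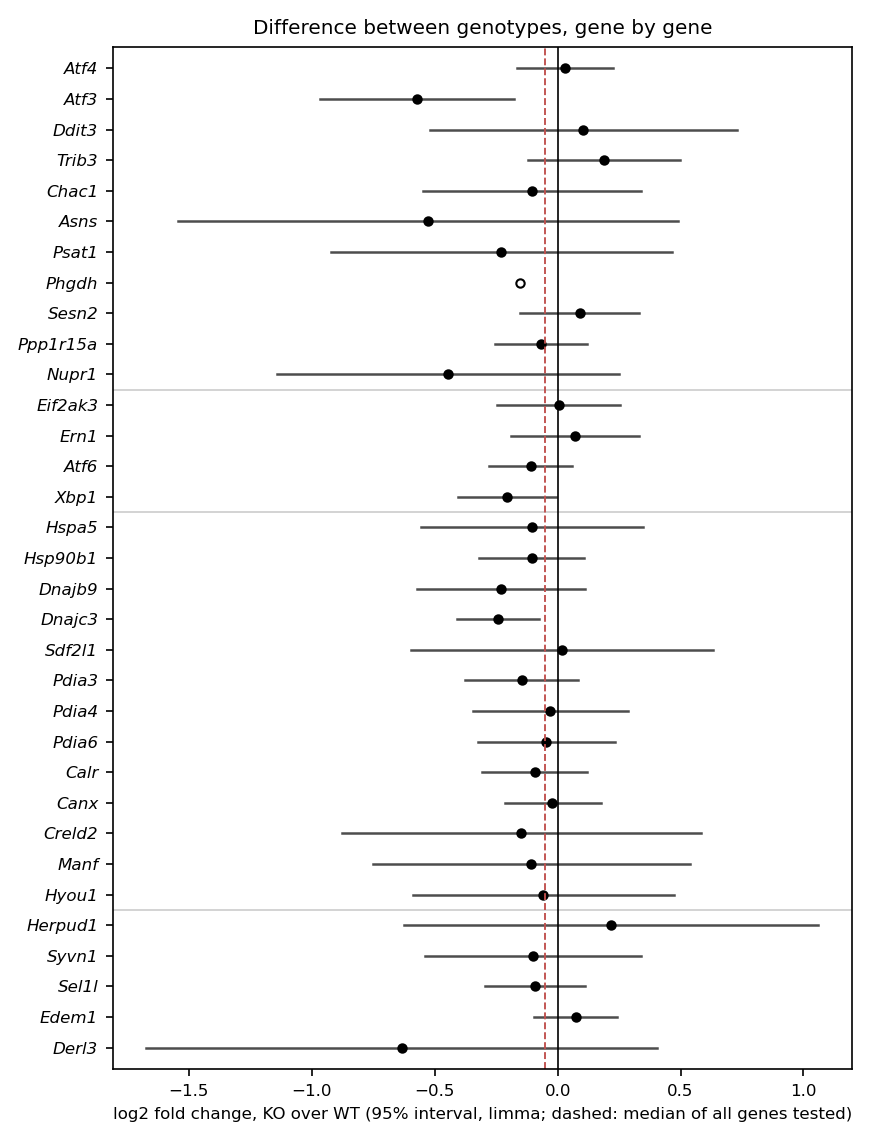
Log2 fold change of each gene, KO over WT, on the log2(FPKM + 0.5) scale, with limma's 95% confidence interval, in the order ISR, sensors, chaperones and ERAD from top to bottom; the dashed line is the median of all genes tested (-0.05) and the open point is Phgdh, which was not tested. The intervals of Atf3, Xbp1 and Dnajc3 lie below 0, and none of the 32 genes passed the adjusted threshold.

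In the ISR arm, the regulators at the top of the pathway overlapped fully between genotypes. Atf4, the transcription factor that defines the branch, was at 41.06, 42.81, 38.36, 35.66 and 43.80 FPKM in KO1 to KO5, and at 41.02, 39.82, 35.42, 34.71 and 47.21 FPKM in WT1 to WT5. The KO range lay inside the WT range, and the KO to WT ratio was 1.02 with an interval of 0.893 to 1.17 (limma adjusted p = 0.927). Ddit3, which encodes CHOP, a transcription factor linked to cell death under lasting stress, was at 7.77, 12.22, 10.69, 6.89 and 4.87 FPKM in KO1 to KO5, and at 11.11, 11.18, 6.77, 5.43 and 5.05 FPKM in WT1 to WT5. Each genotype held 2 livers above 10 FPKM and 3 below 8, and the log2 fold change was 0.10 with an interval from -0.52 to 0.73 (limma adjusted p = 0.917). Ddit3 shares 68 exonic bases with Mars on the opposite strand, and the sources used here do not say whether counting was strand-specific.

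Atf3, a stress and immediate-early transcription factor (chr1, minus strand, 191170296 to 191218039, GRCm38), had the lowest p of the ISR arm. It was at 1.11, 0.75, 1.13, 1.29 and 0.70 FPKM in KO1 to KO5, and at 1.5, 1.59, 2.23, 1.04 and 2.41 FPKM in WT1 to WT5. Of the WT livers only WT4 fell inside the KO range, and the other 4 lay above every KO liver. The log2 fold change was -0.57 (95% interval -0.97 to -0.18), with an unadjusted limma p of 0.00806 and an adjusted p of 0.233, and p was 0.0317 by an exact permutation test (two-sided). The level is low in both groups, at 0.996 ± 0.258 FPKM in KO livers and 1.75 ± 0.561 FPKM in WT livers (SD, n = 5 each).

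Immediate-early genes, which respond within minutes to handling as well as to signals, were read beside Atf3. Junb averaged 17.8 ± 4.32 FPKM in KO livers and 25.9 ± 5.89 FPKM in WT livers (SD, n = 5 each; log2 fold change -0.53, limma adjusted p = 0.274), and Jun averaged 10.1 ± 3.07 FPKM in KO livers and 13.3 ± 3.19 FPKM in WT livers (limma adjusted p = 0.457). Dusp1 had a higher mean in KO livers (log2 fold change 0.52, limma adjusted p = 0.404). The summed level of the 8 immediate-early genes ran from 88.0 to 136 FPKM in KO livers and from 88.3 to 182 FPKM in WT livers. The part of these genes in the Atf3 values was not tested.

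Asns, Psat1, Phgdh and Nupr1, all targets of ATF4, were low in these livers, and a single WT library, WT2, was the highest for each. Asns, asparagine synthetase, was at 0.14, 0.25, 0.16, 0.52 and 0.16 FPKM in KO1 to KO5, and at 0.02, 3.57, 0.28, 0.52 and 0.29 FPKM in WT1 to WT5. Nupr1, a small stress-induced chromatin protein, was at 1.61, 1.09, 1.55, 2.62 and 1.49 FPKM in KO1 to KO5, and at 1.48, 6.23, 2.74, 1.73 and 1.57 FPKM in WT1 to WT5. In both, WT2 stood far above the other 9 libraries. Psat1, phosphoserine aminotransferase of serine synthesis, showed the same, with 1.98 FPKM in WT2, 0.16 to 0.81 FPKM over the KO livers and 0.31 to 0.36 FPKM over the other WT livers.

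The means of these 3 genes were lower in KO livers with all 10 libraries, at log2 fold changes of -0.53 for Asns, -0.44 for Nupr1 and -0.23 for Psat1 (limma adjusted p = 0.702, 0.62 and 0.817). Without WT2 the log2 fold changes were -0.04 for Asns, -0.14 for Nupr1 and 0.08 for Psat1. Phgdh, the first enzyme of serine synthesis, ranged from 0.09 to 0.38 FPKM in KO livers and from 0.15 to 0.50 FPKM in WT livers and was also highest in WT2. WT2 was the highest library in 4 of the 11 ISR genes and among the 4 highest in 9 of them. Stellate cell markers summed to 195 FPKM in WT2, against 142 to 161 FPKM over the KO livers and 148 to 161 FPKM over the other WT livers. WT2 also had the highest sums of plasma cell markers (53.1 FPKM) and of immediate-early genes (182 FPKM). Its macrophage sum was 321 FPKM, as in WT1, and its endothelial sum was 193 FPKM, within the range of the other libraries. The part of these markers and genes in the WT2 values was not tested. Atf4 itself, at 39.82 FPKM in WT2, lay between the lowest and the highest of the other WT livers.

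The other targets overlapped between genotypes throughout. Trib3, a pseudokinase that restrains ATF4 and insulin signalling, was at 4.16, 4.94, 5.36, 6.62 and 3.78 FPKM in KO1 to KO5, and at 3.82, 5.41, 4.0, 4.5 and 3.61 FPKM in WT1 to WT5. KO4 was its highest library, and the log2 fold change of 0.19 did not pass (limma adjusted p = 0.647). Chac1, which degrades glutathione, ranged from 0.89 to 2.14 FPKM in KO livers and from 0.90 to 2.16 FPKM in WT livers. Sesn2, a sestrin that restrains mTORC1, ranged from 3.46 to 4.28 and from 2.88 to 4.30 FPKM in KO and WT livers. Ppp1r15a, the GADD34 subunit that directs eIF2 dephosphorylation, ranged from 4.57 to 6.01 and from 5.04 to 6.05 FPKM in KO and WT livers, with a ratio between 0.837 and 1.09.

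Among the sensors, neither kinase differed between genotypes by more than the spread between livers. Eif2ak3 was at 3.31, 4.41, 5.24, 3.70 and 3.87 FPKM in KO1 to KO5, and at 4.71, 3.79, 4.22, 3.70 and 3.89 FPKM in WT1 to WT5. Ern1 was at 7.02, 6.89, 6.54, 8.40 and 9.13 FPKM in KO1 to KO5, and at 7.70, 8.51, 5.52, 6.80 and 7.6 FPKM in WT1 to WT5. The ranges overlapped for both, and the intervals of the KO to WT ratio were 0.844 to 1.19 for Eif2ak3 and 0.876 to 1.26 for Ern1. Atf6 was at 11.71, 11.64, 14.10, 13.82 and 12.46 FPKM in KO1 to KO5, and at 13.29, 12.97, 13.56, 13.53 and 15.50 FPKM in WT1 to WT5. KO2, KO1 and KO5 were its 3 lowest libraries and WT5 its highest, with a log2 fold change of -0.11 (limma adjusted p = 0.616).

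Xbp1 (chr11, plus strand, 5520659 to 5525893, GRCm38) was an abundant transcript at a lower mean in KO livers, without passing the test. It was at 114.26, 138.61, 131.83, 119.69 and 111.17 FPKM in KO1 to KO5, and at 169.32, 142.78, 124.51, 127.43 and 147.74 FPKM in WT1 to WT5. The 3 highest values were WT1, WT5 and WT2 and the 3 lowest KO5, KO1 and KO4, while WT3 and WT4 lay within the KO range. The means were 123 ± 11.7 FPKM in KO livers and 142 ± 18 FPKM in WT livers (SD, n = 5 each; log2 fold change -0.20, 95% interval -0.40 to -0.01). The unadjusted limma p was 0.0447 and the adjusted p 0.408, and the exact two-sided permutation p was 0.0714. These values sum the spliced and unspliced forms of Xbp1.

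RNAs that IRE1 is known to cleave were read as a neighbouring list. All 6 had a lower mean in KO livers with the deposited scaling, beside 65.1% of all genes tested. Their median log2 difference was -0.07, beside -0.05 for all genes tested, and 0 of 6 had an unadjusted limma p under 0.05. Sparc, a matrix protein of stellate cells, averaged 27.3 ± 4.67 FPKM in KO livers and 30.6 ± 3.76 FPKM in WT livers (SD, n = 5 each; limma adjusted p = 0.603). Hgsnat, a lysosomal enzyme, had a log2 fold change of -0.04, which turned to 0.02 after median-of-ratios scaling.

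**Figure D2:**
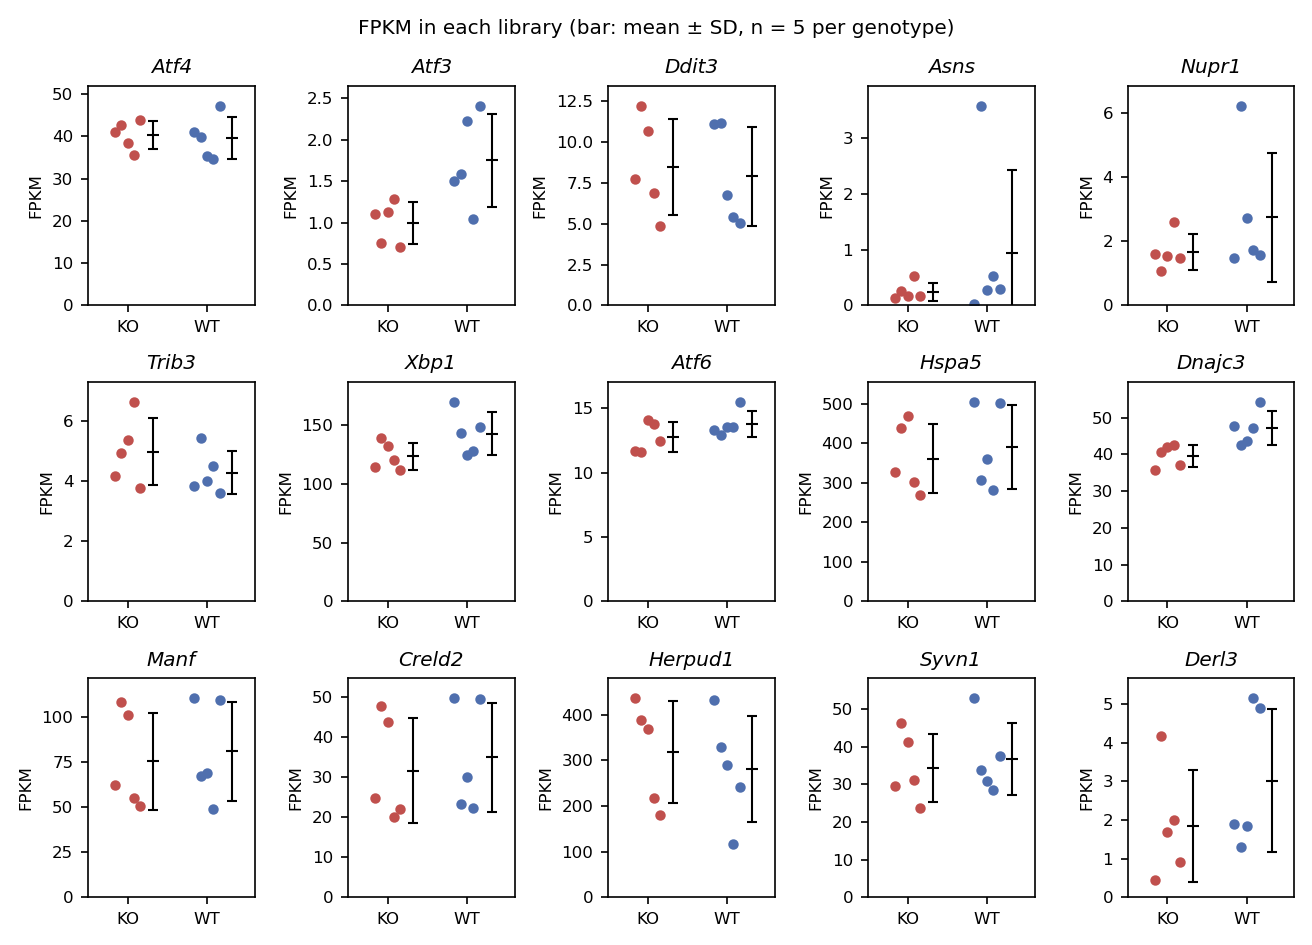
FPKM of 15 of the genes in each of the 5 KO and 5 WT libraries, with the mean and SD at the right of each group; every vertical axis starts at 0, which cuts the lower end of the SD bar of Asns in WT. Dnajc3 is the one gene whose KO and WT ranges do not overlap, and the WT means of Asns and Nupr1 are drawn up by the single value of WT2.

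The chaperones and folding enzymes are the most abundant arm, together 1459 to 2093 FPKM in KO livers and 1581 to 2205 FPKM in WT livers, or 0.198% to 0.289% and 0.21% to 0.302% of each library's total. Of the 13 genes 12 had a lower mean in KO livers, all but Sdf2l1, at a median log2 difference of -0.10; after median-of-ratios scaling the count was 9, since Pdia4, Pdia6 and Canx turned slightly higher. Over all genes tested the shares with a lower mean were 65.1% and 51.1% under the same scalings. After quantile normalization 12 of the 13 had a lower mean, beside 51.7% of all genes tested. The median depended on single livers: it was -0.17 without KO2, -0.17 without KO3, -0.002 without WT1 and -0.003 without WT5. Without KO3 the log2 fold changes were -0.21 for Hspa5, -0.23 for Manf, -0.29 for Creld2, -0.12 for Sdf2l1 and -0.34 for Dnajb9, which then had an unadjusted limma p of 0.0347 and an adjusted p of 0.372. All 13 intervals lay within 2-fold. One of the 13 had an unadjusted limma p under 0.05, and 0 passed after adjustment.

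That gene was Dnajc3 (chr14, plus strand, 118937976 to 118981697, GRCm38), which encodes p58IPK, an ER-resident co-chaperone of BiP. It was at 35.85, 40.70, 42.08, 42.47 and 37.10 FPKM in KO1 to KO5, and at 47.70, 42.50, 43.66, 47.27 and 54.23 FPKM in WT1 to WT5. The ranges did not overlap, although KO4 at 42.47 and WT2 at 42.50 FPKM nearly met. Separate ranges with the lower values in KO livers were found for 2.21% of all genes tested, and for 1 of these 32. The means were 39.6 ± 3.0 FPKM in KO livers and 47.1 ± 4.59 FPKM in WT livers (SD, n = 5 each), 1.18-fold higher in WT. The log2 fold change was -0.24 (95% interval -0.41 to -0.08), with an unadjusted limma p of 0.0082 and an adjusted p of 0.233, and the exact two-sided permutation p was 0.00794, the smallest that 5 against 5 libraries can give.

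Hspa5 (chr2, plus strand, 34771970 to 34777547, GRCm38), which encodes BiP, the main Hsp70 of the ER and the usual readout of its stress, was at 326.89, 439.99, 469.02, 302.47 and 270.10 FPKM in KO1 to KO5, and at 505.01, 306.76, 360.26, 282.11 and 502.51 FPKM in WT1 to WT5. Each genotype held 2 high livers, KO2 and KO3 and likewise WT1 and WT5, and 3 low ones. The means were 362 ± 87.7 and 391 ± 106 FPKM in KO and WT livers (SD, n = 5 each), and the KO to WT ratio was 0.93 with an interval of 0.68 to 1.27 (limma adjusted p = 0.879). Hsp90b1, the ER Hsp90 known as GRP94, was at 345.00, 405.75, 438.05, 362.45 and 315.30 FPKM in KO1 to KO5, and at 414.55, 372.37, 377.54, 364.67 and 476.35 FPKM in WT1 to WT5. The same 4 livers were highest, and the ratio interval was 0.80 to 1.08 (limma adjusted p = 0.72).

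Dnajb9, which encodes ERdj4, a co-chaperone that represses IRE1 and helps degradation, was at 36.14, 36.43, 45.50, 29.00 and 24.85 FPKM in KO1 to KO5, and at 49.81, 36.90, 41.99, 31.73 and 39.67 FPKM in WT1 to WT5. WT1 was highest and KO5 lowest, with broad overlap (log2 fold change -0.23, limma adjusted p = 0.597). Pdia3, a disulfide isomerase that works on glycoproteins with calnexin and calreticulin, was at 113.27, 150.21, 161.56, 145.50 and 120.72 FPKM in KO1 to KO5, and at 152.27, 130.00, 146.58, 157.92 and 175.06 FPKM in WT1 to WT5. KO1 and KO5 were its lowest livers and WT5 its highest (log2 fold change -0.15, limma adjusted p = 0.626).

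The lectin chaperones overlapped between genotypes and had narrow intervals. Calr, calreticulin, ranged from 272.57 to 394.18 FPKM in KO livers and from 312.34 to 401.35 FPKM in WT livers, with a ratio interval of 0.809 to 1.09. Canx, calnexin, ranged from 102.26 to 129.83 FPKM in KO livers and from 98.62 to 127.05 FPKM in WT livers, with a ratio interval of 0.861 to 1.13. The disulfide isomerase Pdia6 ranged from 49.14 to 78.38 FPKM in KO livers and from 57.22 to 77.38 FPKM in WT livers. None of these passed the test, with limma adjusted p of 0.752, 0.951 and 0.92.

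Several genes of this arm shared their highest libraries. In 7 of the 13 chaperone genes, and in 2 of the 5 ERAD genes, the 4 highest libraries were KO2, KO3, WT1 and WT5, 2 of each genotype. The 9 genes were Hspa5, Hsp90b1, Sdf2l1, Pdia4, Creld2, Manf, Hyou1, Syvn1 and Sel1l. No ISR gene and no sensor had that order. Over all genes tested it was found in 48 (0.387%), of which 39 were outside the 33 (0.315% of 12363). With KO3 left out, KO2, WT1 and WT5 lay above all other libraries in the same 9 genes. That held for 124 of all 12395 genes tested (1.0%). These libraries were picked from the values of these same genes, so the counts are a description and carry no test, and the genes given next were chosen after their values were seen.

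Manf, a secreted ER stress factor, was at 62.29, 108.23, 101.12, 55.03 and 50.75 FPKM in KO1 to KO5, and at 110.68, 67.39, 68.98, 49.24 and 109.36 FPKM in WT1 to WT5. Creld2, an ER protein induced by stress, was at 24.71, 47.70, 43.67, 20.08 and 21.97 FPKM in KO1 to KO5, and at 49.71, 23.32, 29.89, 22.35 and 49.35 FPKM in WT1 to WT5. Hyou1, the large ER chaperone and nucleotide exchange factor GRP170, was at 22.87, 38.36, 37.74, 24.04 and 24.21 FPKM in KO1 to KO5, and at 40.63, 24.42, 23.20, 22.64 and 45.43 FPKM in WT1 to WT5. In all 3 the 4 high libraries were separated from the rest by a gap, the fourth over the fifth library being 1.47-fold in Manf, 1.46-fold in Creld2 and 1.55-fold in Hyou1.

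Sdf2l1, a partner of the BiP cycle, had a gap of 1.36-fold and ranged from 9.36 to 24.81 FPKM in KO livers and from 10.67 to 18.51 FPKM in WT livers. Pdia4, a disulfide isomerase, had a gap of 1.3-fold and ranged from 90.59 to 135.77 FPKM in KO livers and from 93.72 to 136.88 FPKM in WT livers. The gap was 1.22-fold in Hspa5, 1.1-fold in Syvn1, 1.07-fold in Hsp90b1 and 1.02-fold in Sel1l, so in the last 3 the order rests on small steps. Each genotype held both high and low livers, and the log2 fold changes of the 3 genes with the widest gaps were -0.11 for Manf, -0.15 for Creld2 and -0.06 for Hyou1 (limma adjusted p = 0.917, 0.894 and 0.948). Manf shares 146 exonic bases with Dcaf1 on the opposite strand, at 7.22 FPKM, and Syvn1 shares 91 with Mrpl49, at 14.8 FPKM.

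Of these libraries KO3 holds pancreas RNA. Of the 17 markers 8 were at 0 in KO2, none in KO3, 14 in WT1 and 6 in WT5. In the other libraries 12 to 15 were at 0 in both KO and WT livers. Outside KO3 most of the sum was Cela1, at 2.08 to 2.8 FPKM in KO livers and 2.36 to 3.14 FPKM in WT livers. Markers of plasma cells, which also hold much ER, summed to 41.5 and 41.8 FPKM in KO2 and KO3 and to 45.3 and 39.3 FPKM in WT1 and WT5. Over the other libraries they summed to 19.4 to 38.9 FPKM in KO livers and 26.1 to 53.1 FPKM in WT livers. The part of these markers in the pattern was not tested.

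**Figure D3:**
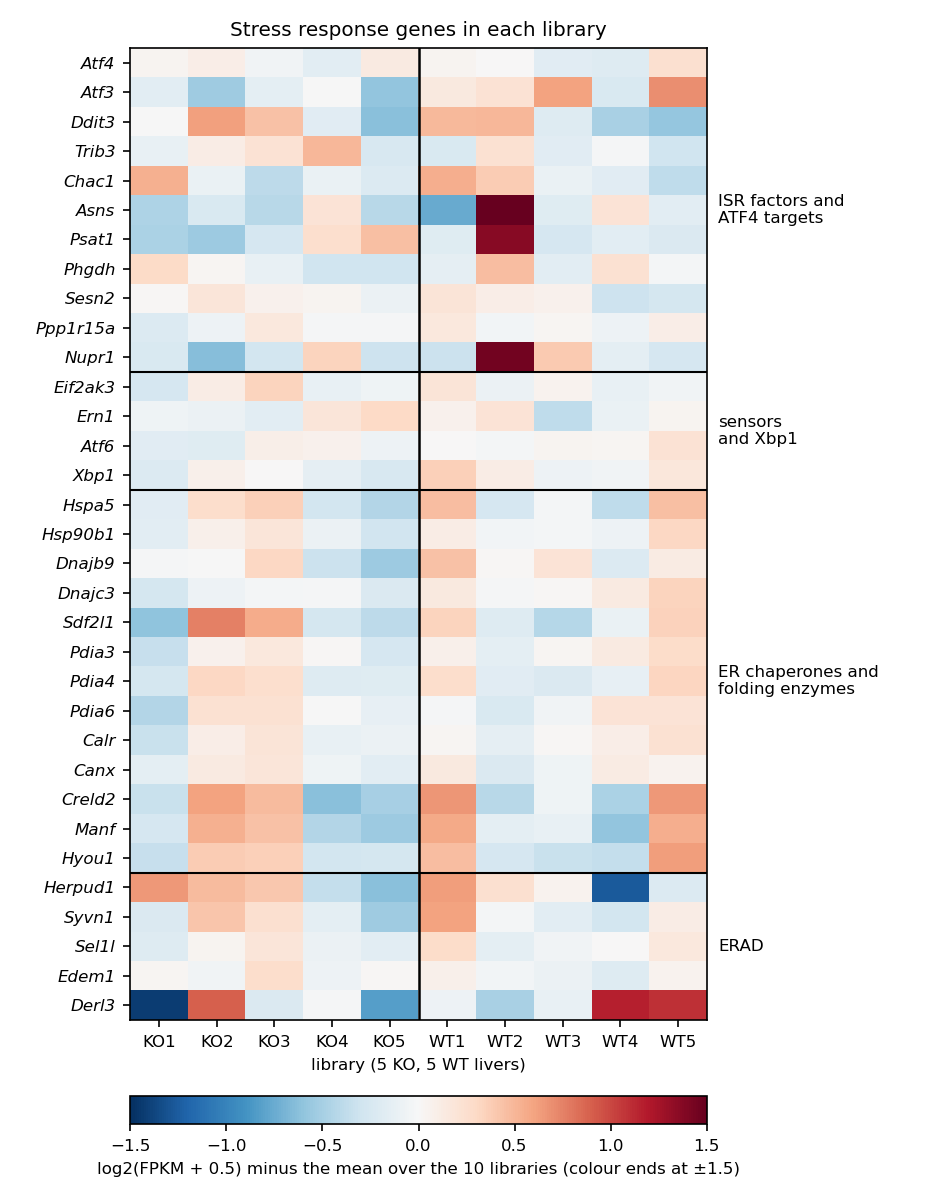
Level of each of the 33 genes in each library as log2(FPKM + 0.5) minus the gene's mean over the 10 libraries, red above and blue below, with KO1 to KO5 at the left of WT1 to WT5. KO2, KO3, WT1 and WT5 are red through most of the chaperone rows, and WT2 is the darkest column for Asns, Psat1 and Nupr1 in the ISR rows.

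**Figure D4:**
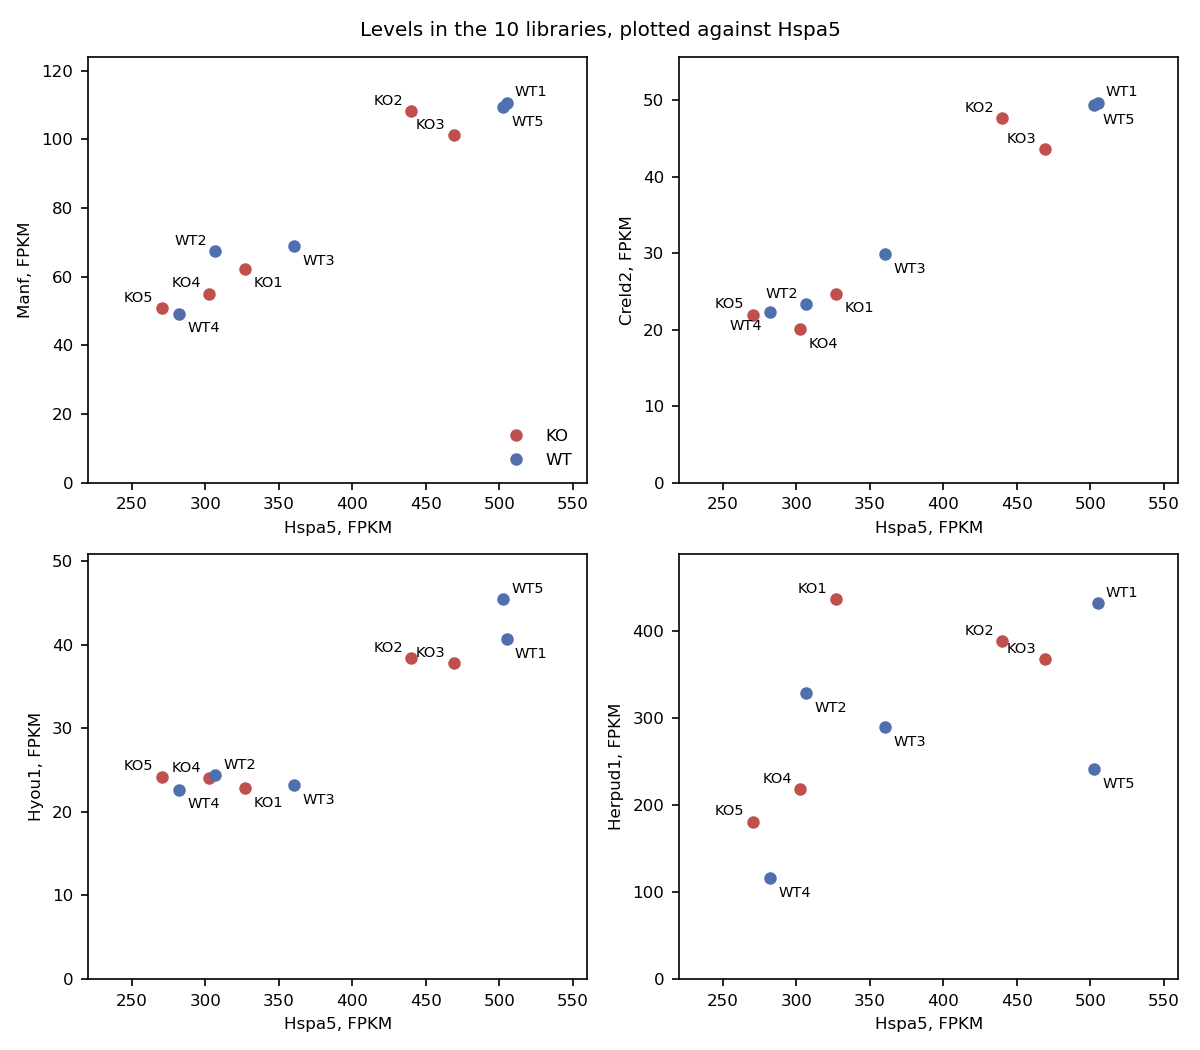
FPKM of Manf, Creld2, Hyou1 and Herpud1 against FPKM of Hspa5 in the 10 libraries, KO in red and WT in blue, with horizontal axes that start above 0. In the first 3 panels KO2, KO3, WT1 and WT5 form a group at the upper right. For Herpud1, KO1 is highest, followed by WT1, KO2 and KO3, while WT5 is at 241.77 FPKM and WT4 is lowest.

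The ERAD genes had no member with an unadjusted limma p under 0.05, and their means differed in sign. Herpud1 (chr8, plus strand, 94386438 to 94395377, GRCm38), a scaffold of the retrotranslocation complex, was at 436.87, 388.19, 368.27, 218.09 and 181.11 FPKM in KO1 to KO5, and at 432.10, 329.04, 289.33, 116.25 and 241.77 FPKM in WT1 to WT5. Its values ran from 116.25 FPKM in WT4 to 436.87 FPKM in KO1, and it was highest in KO1, which was outside the 4 highest libraries for Hspa5, Manf and Creld2. WT1, KO2 and KO3 came next, and WT5 was not among its 4 highest libraries. Its log2 fold change was 0.22 (95% interval -0.62 to 1.06; limma adjusted p = 0.858), and without WT4 it was -0.07. Herpud1 carries both ERSE-II and CARE in the window printed above, the only one of the 30 to hold elements of both kinds.

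Derl3, a derlin of the retrotranslocation channel, was at 0.44, 4.18, 1.68, 2.0 and 0.92 FPKM in KO1 to KO5, and at 1.89, 1.30, 1.84, 5.16 and 4.90 FPKM in WT1 to WT5. KO2, WT4 and WT5 were high and KO1 lowest, with overlapping groups (log2 fold change -0.64, 95% interval -1.67 to 0.40, limma adjusted p = 0.638). Sel1l, the adaptor of the ubiquitin ligase HRD1, was at 28.73, 33.87, 37.41, 31.05 and 29.45 FPKM in KO1 to KO5, and at 39.89, 29.69, 31.68, 33.06 and 36.91 FPKM in WT1 to WT5. The interval of its ratio was 0.815 to 1.08.

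Syvn1, which encodes HRD1, ranged from 23.72 to 46.20 FPKM in KO livers and from 28.46 to 52.96 FPKM in WT livers (log2 fold change -0.10, limma adjusted p = 0.88). Edem1, a lectin that hands misfolded glycoproteins to degradation, was at 28.66, 27.22, 33.89, 26.64 and 28.51 FPKM in KO1 to KO5, and at 29.65, 27.45, 26.45, 24.55 and 29.32 FPKM in WT1 to WT5. KO3 was its highest library and WT4 its lowest, and the ratio interval was 0.936 to 1.18.

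Other genes of the pathways were read from lists of their textbook members, and 0 of these passed the adjusted threshold. Among 30 other ATF4 targets tested, 2 had an unadjusted limma p under 0.05 with a higher mean in KO livers and 2 with a lower one (6.67% each, beside 2.69% higher and 9.07% lower of all genes tested), at a median log2 difference of -0.03. Cth, cystathionine gamma-lyase of cysteine synthesis, averaged 429 ± 70.3 FPKM in KO livers and 278 ± 60.1 FPKM in WT livers (SD, n = 5 each; log2 fold change 0.64, limma adjusted p = 0.143). Gdf15, a secreted stress cytokine, averaged 8.58 ± 2.43 FPKM in KO livers and 14 ± 3.67 FPKM in WT livers (log2 fold change -0.68, limma adjusted p = 0.233). Shmt2 of mitochondrial one-carbon metabolism had a log2 fold change of 0.22 (limma adjusted p = 0.246), and Aldh18a1 of proline synthesis one of -0.48 (limma adjusted p = 0.392).

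Of 16 other genes of the eIF2 pathway, among them the eIF2 and eIF2B subunits and the related kinases, 1 (6.25%) had an unadjusted limma p under 0.05 with a lower mean in KO livers, beside 9.07% of all genes tested. That gene was Eif2s2, the beta subunit of eIF2, at 24.4 ± 1.46 FPKM in KO livers and 27.3 ± 2.27 FPKM in WT livers (SD, n = 5 each; log2 fold change -0.16, limma adjusted p = 0.399). Among 10 other ER stress transcription factors and proteases, Atf6b, the paralogue of Atf6, ranged from 7.84 to 9.01 FPKM in KO livers and from 6.34 to 7.34 FPKM in WT livers. Its ranges did not overlap, with the higher values in KO livers, a split found in 0.581% of all genes tested (log2 fold change 0.25, limma adjusted p = 0.194). Atf6b and Atf6 thus had mean differences of opposite sign, neither of which passed, and the difference between them was not tested.

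Of the 25 other ERAD genes tested, 5 (20.0%) had an unadjusted limma p under 0.05, all with a lower mean in KO livers, beside 9.07% of all genes tested. Herpud2, a relative of Herpud1, ranged from 10.11 to 11.27 FPKM in KO livers and from 11.77 to 13.40 FPKM in WT livers (log2 fold change -0.23, limma adjusted p = 0.183). Derl1, a relative of Derl3, ranged from 29.58 to 34.05 FPKM in KO livers and from 35.52 to 37.96 FPKM in WT livers (log2 fold change -0.17, limma adjusted p = 0.255). Both had separate ranges, 2 of the 25 beside 2.21% of all genes tested, while Derl2 (log2 fold change -0.27, limma adjusted p = 0.286) and the ubiquitin ligase March6 (log2 fold change -0.15, limma adjusted p = 0.35) overlapped. A lower mean in KO livers was found for 21 of the 25, beside 65.1% of all genes tested. The count was 17 after median-of-ratios scaling and 19 after quantile normalization, beside 51.1% and 51.7% of all genes tested.

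Of 43 other ER folding and translocation genes, 3 (6.98%) had an unadjusted limma p under 0.05, all with a lower mean in KO livers, beside 9.07% of all genes tested, and the median log2 difference was -0.004. Sec62 of the translocation channel ranged from 36.26 to 39.03 FPKM in KO livers and from 40.85 to 45.49 FPKM in WT livers (log2 fold change -0.19, limma adjusted p = 0.2). Stt3b, a catalytic subunit of oligosaccharyltransferase, ranged from 22.35 to 25.28 FPKM in KO livers and from 26.14 to 29.29 FPKM in WT livers (log2 fold change -0.20, limma adjusted p = 0.214). Ssr3 of the translocon-associated complex had a log2 fold change of -0.19 (limma adjusted p = 0.239). In the list of the mitochondrial unfolded protein response, 0 of 9 genes had an unadjusted limma p under 0.05, and the mitochondrial chaperonin Hspd1 averaged 226 ± 12.0 FPKM in KO livers and 243 ± 7.53 FPKM in WT livers (SD, n = 5 each; limma adjusted p = 0.487).

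**Figure D5:**
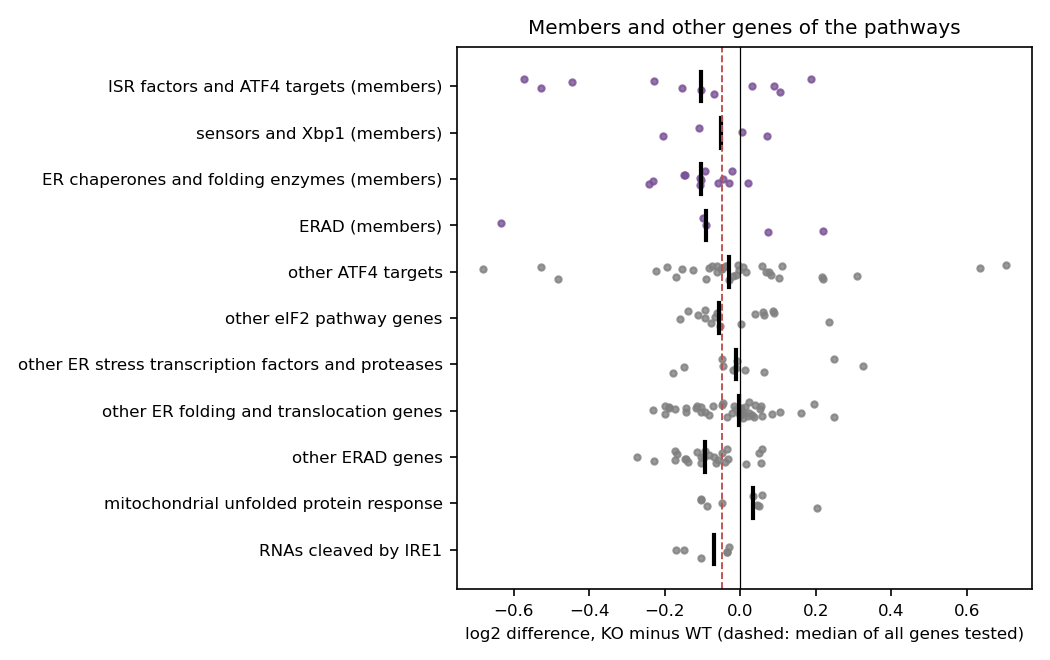
Log2 difference, KO minus WT, of each gene in the 4 arms (purple) and in the other pathway lists (grey), with a black bar at each median and a dashed line at the median of all genes tested (-0.05). Most genes lie between -0.2 and 0.2, and no gene shown passed the adjusted threshold.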

How the data were processed

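RNA of 5 KO and 5 WT livers was selected for poly(A) and made into directional libraries for paired-end sequencing, per the labels' protocols. The authors deposited FPKM for 47729 genes, rounded to 2 decimals; 2 columns without name or values were not used, and 0 columns of values were unmapped. The submitters' processing notes name build mm10 and the tools DESeq, DESeq2, R 4.0.2, RSEM and STAR; what each did, the annotation, any filters and the use of strand are not stated in the sources used here. Because FPKM is relative to the library total, abundant transcripts can shift the rest.

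Columns were matched to samples by title and grouped by genotype. Depth was estimated from low values, of which 94.4% to 97.1% came within 0.1 of a whole number of fragments. Genes averaging 0.5 FPKM or more (12395) were tested as log2(FPKM + 0.5) with limma 3.58.1 in R 4.3.3 (trend, robust prior, two-sided, Benjamini-Hochberg over all tested genes, threshold 0.05); this scale understates changes of low genes. The procedure was tested on simulated data. Exact permutation tests used all 252 splits of 5 against 5. Intervals are at 95%.

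The genes and lists were chosen with earlier results of these data known. The genes named are the 33, Etnppl and up to 4 of lowest p in each other list; those given in every library are up to 4 of lowest p in each arm, with Hspa5, Xbp1, Atf4 and Ddit3. Genes named for their order over libraries, the KO3 marker sums, Alb, Tat, Cps1, Cela1, Dbp and Nfil3 were chosen after their values were seen. The 28 symbols listed for other ERAD genes stand for 25 genes, since some were listed under an older and a newer name, such as Ufd1l and Ufd1. All 25 were in the table. The alternatives were other pseudocounts, filters and scalings, array weights, limma without trend or robust prior, a block for the replicate number, and each library left out in turn. Coordinates are from GENCODE on GRCm38, and promoters from RefSeq. Protein sequences were not analysed here. Python 3.11.15 and matplotlib 3.10.9 drew the figures.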

Additional observations from a re-analysis of the deposited data

Results flagged for a closer look

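Values that stood far from the other 4 of their genotype were looked for in the 33 genes and in the summed cell type markers, by the gap to the nearest library over the range of the group (above 0.71 for 5 libraries). Chance alone marks about 1 in 20 groups. WT2 was marked in 3 ISR genes, with Asns at 3.57 FPKM against 0.52 FPKM in the next WT liver, Psat1 at 1.98 FPKM against 0.36 FPKM, and Nupr1 at 6.23 FPKM against 2.74 FPKM. In the same library Atf4 was at 39.82 FPKM and the immediate-early gene Egr1 at 79.65 FPKM, against 4.86 to 31.70 FPKM in the other WT livers.

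In KO livers, Chac1 was at 2.14 FPKM in KO1 with the next liver at 1.21 FPKM, Asns at 0.52 FPKM in KO4 with the next at 0.25 FPKM, and Edem1 at 33.89 FPKM in KO3 with the next at 28.66 FPKM. In WT livers, Atf6 was at 15.5 FPKM in WT5 with the next at 13.56 FPKM. The pancreas acinar markers summed to 222 FPKM in KO3, with the next KO liver at 3.57 FPKM. Ctrb1 was at 56.41 FPKM and Cela2a at 49.70 FPKM in that library, and at no more than 0.06 and 0.67 FPKM in the other KO livers. The plasma cell markers summed to 19.4 FPKM in KO4, below the next KO liver at 38.1 FPKM.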

How the results depend on the processing

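None of the 32 tested genes passed the adjusted threshold in any of the 21 alternatives, and 2 to 4 had an unadjusted limma p under 0.05 (3 with the main settings). After median-of-ratios scaling there were 2, both lower in KO livers, beside 655 higher and 632 lower of all 12395 genes. After quantile normalization there were 3, all lower, beside 644 higher and 680 lower. Shares of all genes in the fits that leave out a library are not given here. The number of genes past the threshold over the whole table was 8 and changed to 5 without a filter, 5 without trend or robust prior, 18 with array weights and 5 with the replicate block; leaving out each library gave 4 to 18, with 18 without WT2. Libraries of the same number share only that number in the labels and were not taken as pairs, since not every pair deviated together (r from -0.025 to 0.204, 2 of 5 pairs over 0.1, 3 of 5 KO libraries closest to their own number, a hint from the data and not the design), and 0 of the 32 passed with the block, where Herpud1 had an unadjusted limma p of 0.224 against 0.574 without it. After median-of-ratios scaling, which moved the median of all genes from -0.05 to -0.004, the log2 fold changes of Pdia4, Pdia6, Canx and Hgsnat were 0.024, 0.006, 0.032 and 0.017. The median of the sensors was 0.001 after quantile normalization. Leaving out 1 library changed the sign of 14 genes, none of them called. Their lowest and highest log2 fold changes were -0.015 and 0.094 for Atf4, -0.037 and 0.275 for Ddit3, -0.25 and 0.019 for Chac1, -0.37 and 0.084 for Psat1, -0.079 and 0.069 for Eif2ak3, -0.017 and 0.129 for Ern1, and -0.167 and 0.173 for Sdf2l1. For the other 7 they were -0.111 and 0.049 for Pdia4, -0.109 and 0.058 for Pdia6, -0.076 and 0.017 for Canx, -0.269 and 0.021 for Manf, -0.162 and 0.09 for Hyou1, -0.069 and 0.403 for Herpud1, and -0.215 and 0.039 for Syvn1. The causes were not tested. Atf3, Xbp1 and Dnajc3 kept a lower mean in KO livers in every alternative that tested them, at -0.74 to -0.45, -0.25 to -0.14 and -0.28 to -0.19. Genes under 1 FPKM such as Asns rest on few fragments.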

Other observations

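The 4 highest libraries were also KO2, KO3, WT1 and WT5 in 39 genes outside the 33. By list these were 2 of 43 other ER folding and translocation genes, 0 of 25 other ERAD genes and 0 of 30 other ATF4 targets. Dnajb11, an ER co-chaperone of BiP, was at 27.13, 41.25, 42.96, 35.43 and 34.16 FPKM in KO1 to KO5, and at 40.74, 33.33, 35.95, 35.01 and 47.17 FPKM in WT1 to WT5. Ero1lb, an ER oxidase, was at 7.73, 11.26, 11.70, 8.24 and 7.69 FPKM in KO1 to KO5, and at 13.03, 7.68, 8.83, 10.07 and 12.23 FPKM in WT1 to WT5. Among the rest, picked by hand, were the cargo receptors Surf4, Tmed3 and Tmed9 and the cytosolic chaperone genes Stip1 and Hspa4l, with Stip1 between 35.02 and 45.17 FPKM in KO livers and between 29.97 and 47.86 FPKM in WT livers. Pnlip, a pancreas gene at 9.03 FPKM in KO3 and at no more than 0.06 FPKM in the other KO livers and 0.14 FPKM in WT livers, was also among the 39. Jund, Irf9, Bach1, Aox1 and Foxp2, which are on none of the lists read here, were among the 39 as well. No test was made of these genes.

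Herpud1 held KO2, KO3 and WT1 among its 4 highest libraries, with KO1 in place of WT5. The clock output genes Dbp and Nfil3, chosen after their values were seen, are given beside it. Dbp was at 1.13, 8.25, 4.24, 9.59 and 17.33 FPKM in KO1 to KO5, and at 2.71, 5.50, 14.50, 37.91 and 46.24 FPKM in WT1 to WT5. KO1 and WT1 held the lowest Dbp and the highest Herpud1 of their genotype, and in KO livers KO5 held the highest Dbp and the lowest Herpud1. In WT livers WT4 and WT5 held the 2 highest Dbp and the 2 lowest Herpud1 values. Log2 levels of Dbp were correlated with those of each of the 33 genes over the 10 libraries. Herpud1 had the most negative r of the 33, at -0.81, so it is the extreme of that set. Nfil3 was at 28.87, 22.65, 16.76, 10.29 and 9.15 FPKM in KO1 to KO5, and at 21.65, 14.79, 14.24, 9.64 and 6.48 FPKM in WT1 to WT5, so libraries of the same number held the same rank in both genotypes. Herpud1 likewise fell from KO1 to KO5 and from WT1 to WT4, with WT5 above WT4 and below WT3. The labels do not say what a number stands for. The 16 clock genes summed to 149 to 187 FPKM in KO livers and 167 to 264 FPKM in WT livers; the sources used here do not give the time of day at collection, and its part was not tested.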
